A study of Mus musculus with 6 samples.

Results

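This report describes 10 genes of the unfolded protein response in the livers of Retnla-Tg and Retnla-non-Tg mice. The 10 genes are known members of that response, and every probe set annotated to 1 of them and to no other gene was read, 22 among 45037. A gene is represented by its probe set of highest mean over the 6 arrays, with its other probe sets beside it. All 10 genes lay above the filter on dim probe sets, so all 10 were among the 12705 genes tested.

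Retnla codes for the secreted protein RELM alpha. The 3 Retnla-Tg mice (Tg 5, Tg 6 and Tg 7) carry a transgene for it, and the 3 non-transgenic mice (non-Tg 1, non-Tg 2 and non-Tg 3) do not. All 6 were males on a C57BL6/J background, 3 months of age, switched at 8 weeks of age to food with 21% fat and 0.15% cholesterol, which they ate for 4 weeks, so both groups share the diet and no group on standard food was measured. Each liver was measured on an Affymetrix mouse genome array of its own. The sources used here do not give the promoter that drives the transgene or the number of founder lines.

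The unfolded protein response is set off when unfolded proteins gather in the endoplasmic reticulum (ER). The sensors ATF6 and IRE1 act through cleaved ATF6 and spliced XBP1, which switch on ER chaperones and degradation factors. The sensor PERK slows translation but favours that of ATF4, which switches on CHOP (gene Ddit3), TRB3 (gene Trib3) and amino acid genes. Hepatocytes secrete much protein and lipoprotein, and their ER is known to respond to feeding and to lipid load.

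None of the 10 genes passed the test over all genes (limma adjusted p from 0.735 to 0.992), against 2 of 12705 genes in all, or 0.0157%. At an unadjusted p under 0.05, 2 of the 10 members stood out, where the share over all genes was 6.05%. Pdia4 was lower and Herpud1 higher in Tg livers. The groups did not overlap for 2 members, Pdia4 and Hsp90b1, both lower in Tg livers. Over all genes the share without overlap was 11.7%, and 5.64% lay lower in Tg. Of the 10 differences 5 were above 0 and 5 below, with a median of -0.08 on the log2 scale, against 0.01 over all genes tested. With arrays centred on their medians 7 of the 10 lay below 0, and the share of all genes lower in Tg livers was 59.6%, beside 47.9% without centring.

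Members of the ATF6 and XBP1 arm thus did not lie on one side. Hspa5, Hsp90b1, Pdia4 and Xbp1 had lower means in Tg livers, and Dnajb9, Herpud1 and Sdf2l1 had higher ones. Hspa5 turned to 0.02 without Tg 5, and Sdf2l1 stood at 0.04. For the 3 members whose promoters held a match to an ER stress motif, those stretches are shown before the values. They are from RefSeq, build GRCm38.p6, written 5′ to 3′ along the gene, and capitals mark the motif matches. The Hspa5 stretch lies at chr2:34772010-34772058 on the plus strand, the Hsp90b1 stretch at chr10:86705518-86705671 on the minus strand, and the Herpud1 stretch at chr8:94386302-94386402 on the plus strand.
Hspa5: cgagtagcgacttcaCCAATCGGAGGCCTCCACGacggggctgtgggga
Hsp90b1: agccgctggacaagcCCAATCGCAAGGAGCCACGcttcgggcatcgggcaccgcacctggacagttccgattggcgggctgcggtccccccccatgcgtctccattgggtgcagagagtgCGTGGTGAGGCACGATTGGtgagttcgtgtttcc
Herpud1: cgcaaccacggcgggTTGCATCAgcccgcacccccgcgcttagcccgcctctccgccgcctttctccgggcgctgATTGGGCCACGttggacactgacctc

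Promoter sequences were at hand for all 10 members, and the 250 bases before each gene's start were searched on both strands. The ER stress element (ERSE) was searched as CCAAT, any 9 bases and CCACG, and is known to bind ATF6 together with NF-Y. It was found in 2 members, at -65 to -47 from the start of Hspa5 and at both -212 to -194 and -107 to -89, once on each strand, from that of Hsp90b1. It occurred in 0.113% of 32851 promoter windows of that length. Element ERSE-II, searched as ATTGG, any 1 base and CCACG, was found at -52 to -42 from the start of Herpud1 and in 0.0304% of all windows. The ATF4 element core, TGATGNAA, matched Herpud1 on the opposite strand and 3.45% of all windows. The UPRE core TGACGTGG, known to bind XBP1 and ATF6, matched no member window and 0.563% of all windows. The motifs could overlap one another, and a match describes letters only.

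Hspa5 encodes BiP, the main HSP70 chaperone of the ER and the protein that holds the sensors inactive. Its log2 signal was 14.07, 14.60 and 14.17 in non-Tg 1, 2 and 3, and 13.36, 14.12 and 14.46 in Tg 5, 6 and 7. The groups overlapped, and Tg 5 alone lay below every other mouse. The difference, Tg minus non-Tg, was -0.30 ± 0.25 (SE; limma adjusted p = 0.853). Without Tg 5 it was 0.02, so the direction rests on that mouse. The other Hspa5 probe sets gave -0.19 and -0.18, and Tg 5 was the lowest mouse on both.

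Hsp90b1 encodes GRP94, the HSP90 chaperone of the ER. It was at 13.48, 13.42 and 13.49 in the non-Tg mice and at 13.25, 13.28 and 13.34 in the Tg mice. All 3 Tg values lay below all 3 non-Tg values, in a narrow span of 0.24 over the 6 arrays, where the median span over all genes was 0.74. The difference was -0.18 ± 0.08 (SE), a ratio of 0.885 (95% confidence interval 0.779 to 1.00; limma adjusted p = 0.807). A second probe set gave -0.11 ± 0.12 (SE), and its groups overlapped.

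Pdia4 encodes ERp72, a protein disulfide isomerase that forms and rearranges disulfide bonds. Its signals were 10.75, 10.86 and 10.46 in the non-Tg mice and 10.11, 10.05 and 10.27 in the Tg mice, again without overlap. The difference of -0.55 ± 0.15 (SE) was the lowest among the members, a ratio of 0.684 (95% confidence interval 0.546 to 0.858). Its limma p was 0.00396, with a limma adjusted p of 0.735. The exact permutation p, 2-sided, was 0.1 for Pdia4 and for Hsp90b1, the smallest that 3 mice against 3 can give. A dimmer Pdia4 probe set, at a mean of 6.27, gave 0.28 ± 0.58 (SE), and averaging both probe sets left a difference of -0.13.

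Dnajb9 encodes ERdj4, a J-domain partner of BiP and a known target of spliced XBP1. It was at 11.52, 12.03 and 11.76 in the non-Tg mice and at 11.60, 12.44 and 12.99 in the Tg mice. Tg 6 and Tg 7 lay above every non-Tg mouse, while Tg 5 lay among them. The difference was 0.57 ± 0.29 (SE), a ratio of 1.49 (95% confidence interval 0.947 to 2.34; limma adjusted p = 0.816). It was 0.94 without Tg 5 and 0.25 without Tg 7.

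Herpud1 encodes HERP, a membrane protein of the complex that sends misfolded ER proteins to the proteasome. It was at 13.99, 14.19 and 14.33 in the non-Tg mice and at 14.29, 14.71 and 14.90 in the Tg mice. Tg 5 lay just below non-Tg 3, and the other Tg mice lay above all controls. The difference was 0.46 ± 0.15 (SE), a ratio of 1.38 (95% confidence interval 1.09 to 1.74), with a limma adjusted p of 0.776 and 0.0126 before adjustment. The second probe set gave 0.27 ± 0.18 (SE), and here too the groups overlapped. With each mouse left out in turn the Herpud1 difference ran from 0.33 to 0.63.

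Sdf2l1, a BiP cofactor of the ER lumen, was at 10.46, 9.95 and 9.90 in the non-Tg mice and at 9.85, 10.25 and 10.33 in the Tg mice. The groups lay across one another, with a difference of 0.04 ± 0.19 (SE) whose sign changed in 6 of 18 alternative analyses. Xbp1, the transcription factor of the IRE1 branch, was at 13.96, 14.27 and 13.55 in the non-Tg mice and at 13.72, 13.55 and 13.90 in the Tg mice, a difference of -0.20 ± 0.17 (SE). The Xbp1 difference was -0.03 without non-Tg 2 and -0.39 without non-Tg 3. Its groups overlapped on all 4 probe sets, 3 of which gave -0.20, -0.40 and -0.24 and the dimmest 0.16. The probe set at -0.40 ± 0.16 (SE) had an unadjusted limma p of 0.0333 in the fit over all named probe sets. The limma adjusted p of that probe set was 0.871. Spliced and unspliced Xbp1 were not told apart here, and the probe set that stands for Xbp1 is of a kind (_s_at) that can match several transcripts.

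**Figure D1:**
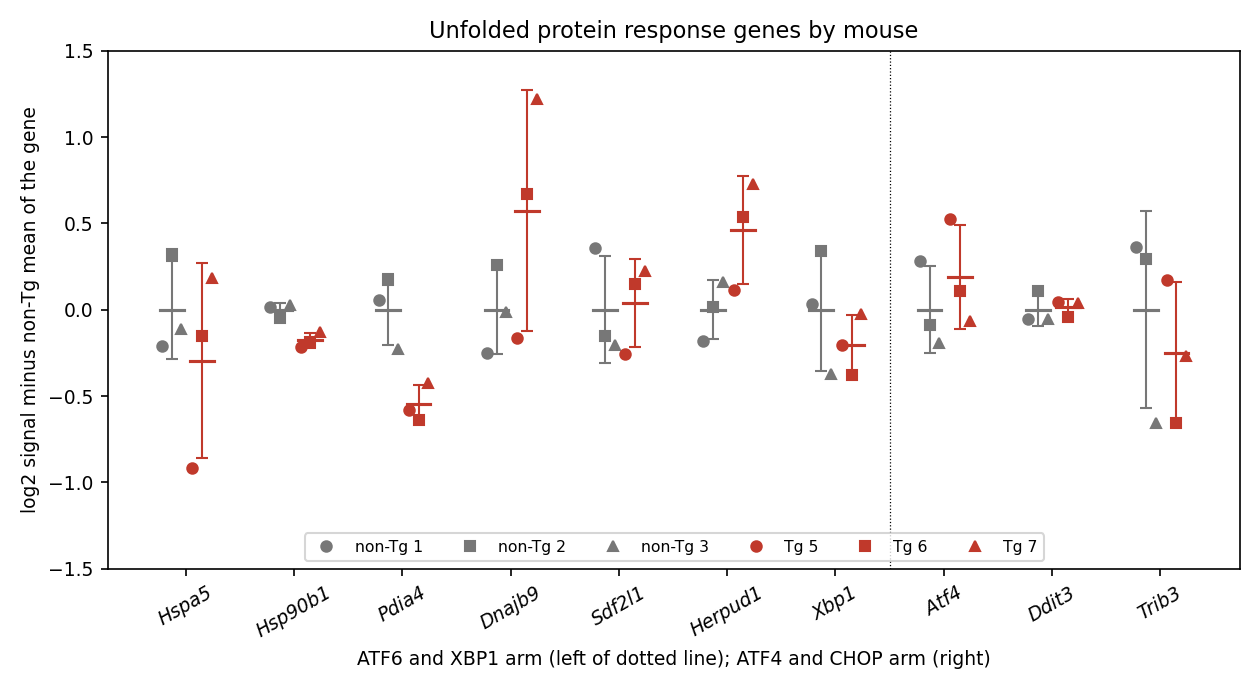
Log2 signal of each of the 10 genes in each mouse, minus the gene's non-Tg mean; grey symbols are non-Tg mice, red symbols Tg mice, horizontal lines group means and bars ±1 SD (n = 3). Pdia4 and Hsp90b1 show no overlap between groups, and Tg 5 stands apart from Tg 6 and Tg 7 for Hspa5 and Dnajb9.

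In the ATF4 and CHOP arm no group separated from the other. Atf4 itself was at 11.77, 11.40 and 11.29 in the non-Tg mice and at 12.01, 11.59 and 11.42 in the Tg mice. Tg 5 was the highest mouse, but non-Tg 1 exceeded the other Tg mice, and the difference was 0.19 ± 0.18 (SE; limma adjusted p = 0.864). Without Tg 5 the Atf4 difference was 0.02, and without non-Tg 1 it was 0.33. The second Atf4 probe set above the filter gave -0.01, and another, at a mean of 3.18, lay below the filter.

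Ddit3, which encodes the pro-apoptotic factor CHOP, was at 8.55, 8.71 and 8.55 in the non-Tg mice and at 8.65, 8.56 and 8.64 in the Tg mice. Its 6 values spanned 0.16, and 1.34% of genes tested had a span as small. The difference was 0.02 ± 0.17 (SE; 95% confidence interval -0.37 to 0.40). A dimmer Ddit3 probe set gave 0.68 ± 0.55 (SE), with overlap. Trib3, a pseudokinase that CHOP and ATF4 induce, was at 9.07, 9.0 and 8.05 in the non-Tg mice and at 8.88, 8.05 and 8.44 in the Tg mice. Here the non-Tg mice alone spanned 1.02, and the difference of -0.25 ± 0.31 (SE) was smaller than that span. The Trib3 difference ran from -0.58 without non-Tg 3 to -0.05 without Tg 6. The second Trib3 probe set gave -0.54 ± 0.37 (SE).

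**Figure D2:**
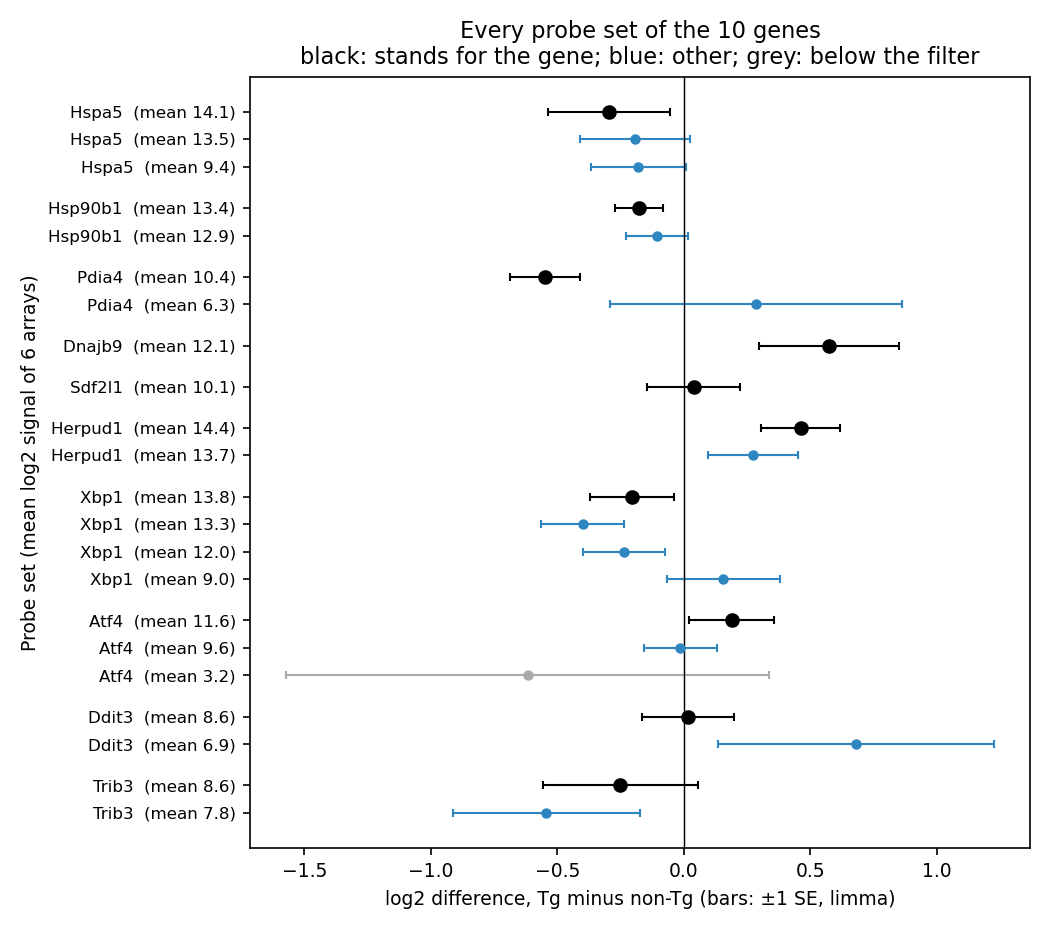
Log2 difference, Tg minus non-Tg, for all 22 probe sets of the 10 genes with ±1 SE from limma (fitted over all named probe sets); black points stand for the gene, blue points are its other probe sets and the grey point lies below the filter. All Hspa5, Hsp90b1 and Trib3 probe sets lie below 0 and both Herpud1 probe sets above 0, while those of Pdia4, Xbp1 and Atf4 lie on both sides.

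Each arm was also read mouse by mouse. The 7 genes of the ATF6 and XBP1 arm had a median difference of -0.18, with 3 above 0 and 4 below, from -0.55 to 0.57. Each gene was then set against its own mean over the 6 arrays. In Tg 5 none of the 7 genes lay above its mean and the arm averaged -0.31, whereas in Tg 7 the arm averaged 0.26 with 5 genes above. The non-Tg mice averaged -0.01, 0.14 and -0.09, inside the span of the Tg mice. The SD of the arm's mean was 0.29 among Tg and 0.12 among non-Tg mice (n = 3 each), a difference in spread that was not tested.

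The ATF4 and CHOP arm had a median difference of 0.02 and averaged 0.21, 0.11 and -0.29 in the non-Tg mice and 0.25, -0.19 and -0.09 in the Tg mice. Its direction is not settled, since the median was -0.06 with arrays centred on their medians. Tg 5, the lowest mouse of the chaperone arm, was the highest mouse here, with all 3 genes above their means. The Tg 5 array also had the highest median log2 signal, 6.74, where the other arrays ran from 6.49 to 6.62. Whether this array value bears on the pattern was not tested. Without Tg 5 the median of the ATF6 and XBP1 arm was 0.02, that is, its sign turned.

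**Figure D3:**
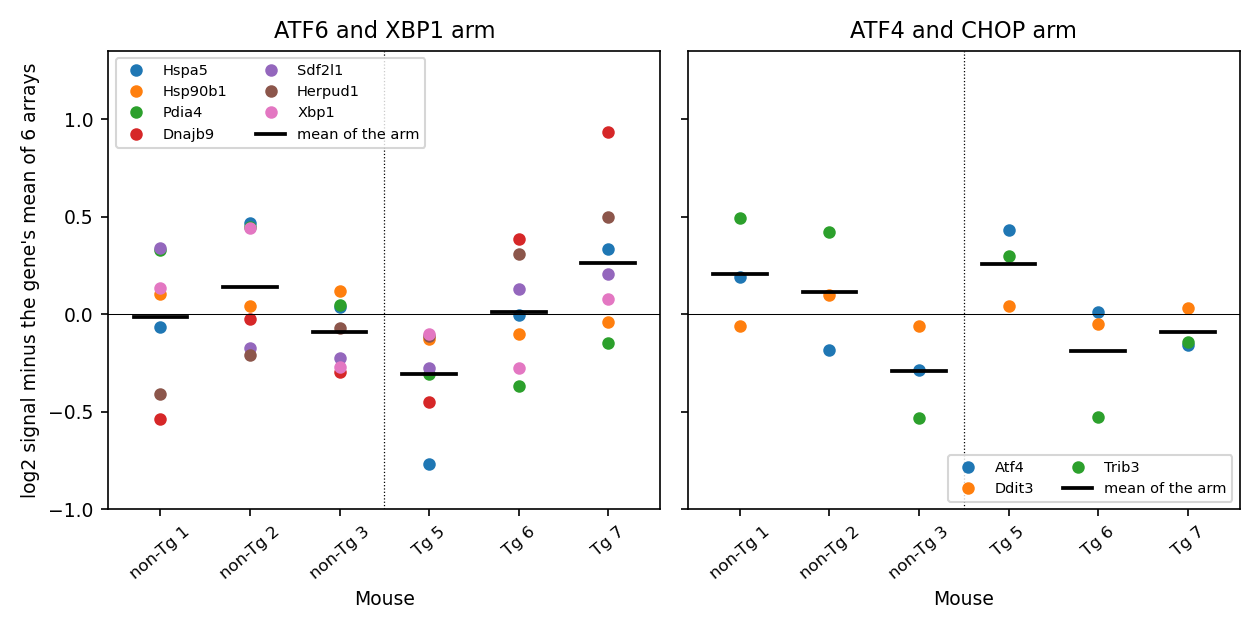
Log2 signal of each gene minus its mean over the 6 arrays, by mouse, for the ATF6 and XBP1 arm (left) and the ATF4 and CHOP arm (right); coloured points are genes and black bars the mean of the arm. Tg 5 has the lowest mean of the left arm, -0.31, and the highest of the right arm, 0.25.

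The arrays also fell into sets by bioC, a bacterial control transcript. Its log2 signal was 9.57 to 9.71 in non-Tg 1, Tg 5 and Tg 6, lowest in Tg 5. In non-Tg 2, non-Tg 3 and Tg 7 it was 10.98 to 11.27. Within the lower and the higher set Pdia4 differed by -0.66 and -0.40, Hsp90b1 by -0.22 and -0.12, Herpud1 by 0.51 and 0.64, and Dnajb9 by 0.50 and 1.09. Hspa5 differed by -0.32 and 0.08. In a fit that took the sets as a block Dnajb9 stood at 0.80 ± 0.23 (SE) and joined Pdia4 and Herpud1 at an unadjusted limma p under 0.05, against 5.67% of all genes in that fit. No member passed adjustment there either, the lowest limma adjusted p being 0.405 for Herpud1.

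Genes whose profile over the 6 mice was nearest to the mean of the ATF6 and XBP1 arm were sought outside the gene lists, by the root mean square distance after centring each gene. They were Klhl2, Ap3m1, Tsfm, Commd2, Pex11g and Xrcc5, at distances from 0.0365 to 0.0585, where the median over all genes was 0.32. The arm's own members lay at 0.19 (Hsp90b1) to 0.40 (Dnajb9) from their mean. All 6 were chosen for this likeness among 12705 genes, so it is a description only.

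Other genes of the pathway were read from 5 lists of 130 genes, of which 118 had a value, and 0 of them passed over all genes. In the ER folding list 11 of 24 genes were above 0 and 13 below, with a median of -0.03. The 13 include Grpel1 (-0.13), which acts in mitochondria and not in the ER. In the list 2 genes had an unadjusted limma p under 0.05, or 8.33% beside 6.05% of all genes. The folding count was 4 without non-Tg 2 and 4 with the bioC sets as a block, and 1 with centring, quantile normalization, the filter at the 60th percentile, the mean of kept probe sets or no intensity trend. Cnpy2, an ER protein of the saposin-like canopy family, was at 13.20, 13.32 and 13.29 in the non-Tg and at 13.05, 12.74 and 12.76 in the Tg mice, a difference of -0.42 ± 0.11 (SE), but its other probe sets gave 0.13 and -0.11. Fkbp11, a peptidyl-prolyl isomerase of secretory cells, differed by 0.62 ± 0.28 (SE) with overlapping groups, and by 0.34 without non-Tg 3 and 0.39 without Tg 5. Its second probe set gave 0.96.

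Among 19 genes of ER-associated degradation 10 were above and 9 below 0, with a median of 0.05. Derl2, a channel component and XBP1 target, differed by -0.23 ± 0.10 (SE), with all Tg values from 12.30 to 12.44 below the non-Tg values of 12.50 to 12.70. Ube2g2, a ubiquitin-conjugating enzyme of the pathway, differed by 0.36 ± 0.16 (SE), and Ubxn4, which recruits the ATPase VCP to the ER, by 0.29 ± 0.12 (SE), both without overlap. The other probe sets of Ubxn4 each gave -0.04. These 3 were the genes of that list with an unadjusted limma p under 0.05, or 15.8% beside 6.05% of all genes. The count was 0 without non-Tg 2, non-Tg 3, Tg 6 or Tg 7, each left out alone, and 0 with centring or without the intensity trend. It was 1 with quantile normalization or the mean of kept probe sets. The median of the degradation list was -0.05 without Tg 7, -0.03 without non-Tg 2 and -0.02 without non-Tg 3. It was -0.03 with centring, -0.02 with the bioC sets as a block and -0.01 with the mean of kept probe sets.

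The ER translocation list gave a median of 0.01 over 19 genes, 11 above 0 and 8 below, with 0 at an unadjusted limma p under 0.05. Besides genes that carry nascent chains into the ER, it holds signal peptidase subunits. It also holds Sec24d and Sec31a, which serve export from the ER. The lowest p of the list belonged to the translocon-associated subunits Ssr4 (0.18) and Ssr1 (-0.24) and to the BiP partner Sec63 (-0.20). The other Ssr4 probe sets above the filter gave 0.22 and -0.46, and those of Ssr1 -0.27, -0.47 and 0.30. Those of Sec63 gave -0.33, -0.18, 0.05 and -0.05, the first with an unadjusted limma p of 0.031. Among 25 sensors and regulators 15 were above and 10 below 0, with a median of 0.08. Ern1, which encodes the sensor IRE1 alpha, was at 11.59, 11.82 and 11.53 in the non-Tg and 11.22, 11.16 and 11.48 in the Tg mice, without overlap, a difference of -0.36 ± 0.13 (SE; limma adjusted p = 0.787). All 4 Ern1 probe sets lay below 0. The liver-enriched ER factor Creb3l3 stood at 0.21 ± 0.09 (SE) and its relative Creb3l2 at 0.58 ± 0.24 (SE), each with an unadjusted limma p under 0.05. These 3 of 25 genes were 12% of the list, beside 6.05% of all genes. The count was 0 without Tg 6 and 0 without the intensity trend, and it was 1 with centring and without non-Tg 2 or Tg 7. Without Tg 7 the median of the sensors and regulators was -0.01.

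**Figure D4:**
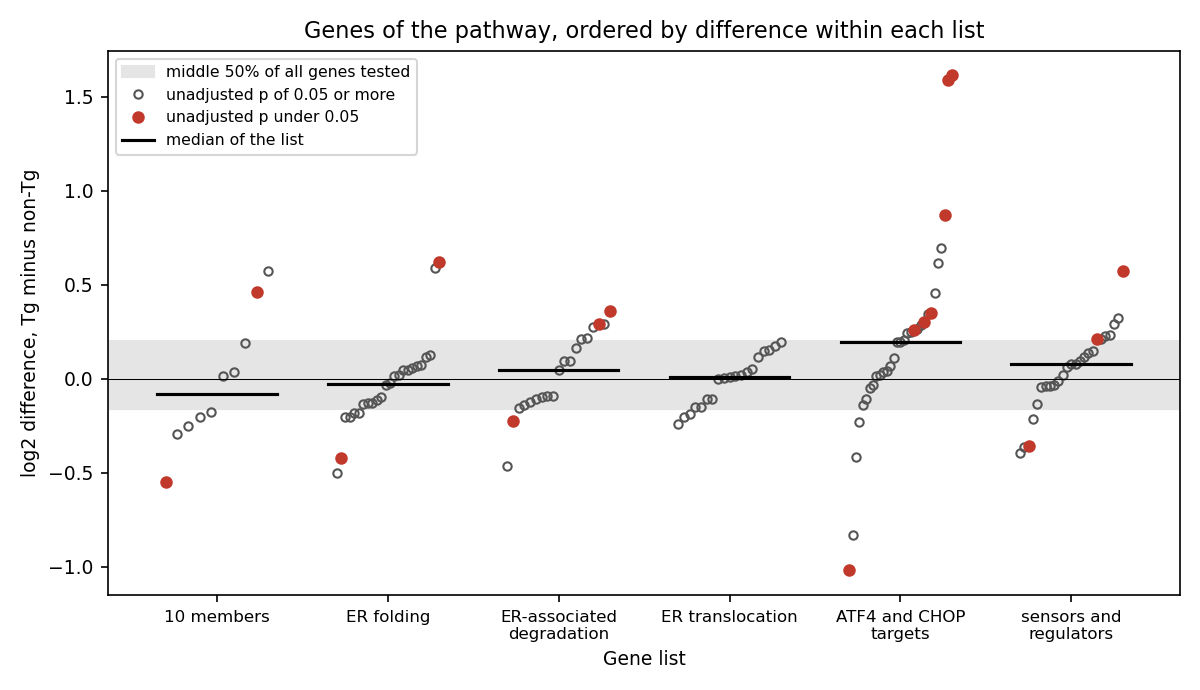
Log2 difference, Tg minus non-Tg, of every measured gene in the 10 members and in the 5 pathway lists, ordered within each list; filled red points have an unadjusted limma p under 0.05, black bars are list medians and the grey band holds the middle 50% of all genes tested. The ATF4 and CHOP targets have a median of 0.20, the highest of the 6 columns, and 7 red points.

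Most measured targets of ATF4 and CHOP had higher means in Tg livers. The list was chosen with earlier results of these data known. Of 31 measured targets 23 were above 0 and 8 below, with a median of 0.20, beside 0.01 over all genes tested. Of all genes tested 47.9% lay lower in Tg livers, and 59.6% with arrays centred on their medians. In the list 7 genes had an unadjusted limma p under 0.05, or 22.6% beside 6.05% of all genes. None passed over all genes. With each gene set against its own mean, the list averaged -0.002, -0.01 and -0.29 in non-Tg 1, 2 and 3. It averaged 0.25, 0.08 and -0.03 in Tg 5, 6 and 7. The groups thus overlapped, with Tg 7 below non-Tg 1 and non-Tg 2. Asns, asparagine synthetase, was at 6.86, 6.84 and 6.85 in the non-Tg mice and at 9.98, 8.01 and 7.41 in the Tg mice, so every Tg value lay above the narrow control range. The difference was 1.61 ± 0.55 (SE; limma adjusted p = 0.779), and a second probe set gave 1.87. Without Tg 5 the Asns difference was 0.86. Phgdh, the first enzyme of serine synthesis and named here after its value was seen, was at 8.26, 8.24 and 5.24 in the non-Tg mice and at 8.95, 8.94 and 8.61 in the Tg mice. The groups did not overlap, but non-Tg 3 lay far below every other mouse, and the difference of 1.59 ± 0.68 (SE) was 0.58 without it.

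At an unadjusted limma p under 0.05, the other higher targets were Ddit4 (0.87), Eif4ebp1 (0.30), Gpt2 (0.26) and Cebpb (0.35). Ddit4 encodes an inhibitor of mTORC1, and Eif4ebp1 a protein that restrains cap-dependent translation. Gpt2 is an alanine aminotransferase and Cebpb a transcription factor. Eif4ebp1 and Gpt2 had no overlap. The other Eif4ebp1 probe sets gave 0.34 ± 0.13 (SE) and -0.23 ± 0.40 (SE). Vldlr, a lipoprotein receptor induced by ATF4, went the other way, at 8.08, 8.16 and 7.73 in the non-Tg and 6.83, 6.43 and 7.65 in the Tg mice, a difference of -1.02 ± 0.35 (SE). The count of 7 was 2 without Tg 6, 3 without non-Tg 2 and 4 without Tg 7, and it was 2 without limma's intensity trend. The median of 0.20 was 0.09 without non-Tg 3, 0.12 without Tg 5 and 0.28 without non-Tg 1. With the bioC sets as a block the median was 0.09 and the count 5, and with centring they were 0.12 and 4.

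**Figure D5:**
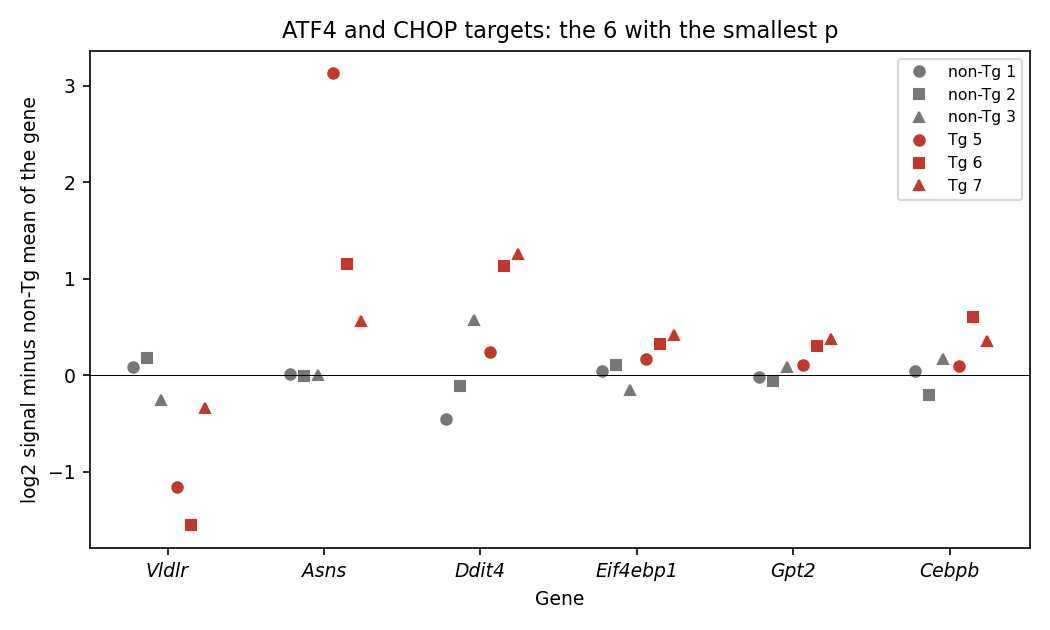
Log2 signal minus the gene's non-Tg mean, by mouse, for the 6 ATF4 and CHOP targets with the smallest limma p; grey symbols are non-Tg and red symbols Tg mice. Asns is higher in all 3 Tg mice, with Tg 5 at a log2 signal of 9.98 against 6.85 in non-Tg 3, and Vldlr is lower in all 3.

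Retnla separated the groups as labelled, at 15.91 to 16.04 in Tg and 6.03 to 7.41 in non-Tg livers. The tissue label was met by hepatocyte markers. Their signals were summed before the log, and the log2 of the sum was 18.79 to 18.93 in all 6 arrays. That sum is carried by the brightest secreted-protein genes. Sums of the other markers below were formed in the same way. The hepatocyte marker Tat, tyrosine aminotransferase, stood apart, at 13.74, 13.50 and 14.36 in the non-Tg and 14.51, 15.33 and 15.10 in the Tg mice. In whole liver, fewer cells of a type and less RNA per cell cannot be told apart. Plasma cells are rich in ER chaperones and XBP1. Their marker sum was 12.56 to 12.83 in Tg and 12.85 to 12.89 in non-Tg livers, 3 of 8 markers higher and 5 lower, with Tnfrsf17 and Irf4 below the filter. Most of that sum was Sdc1, which hepatocytes also make. Exocrine pancreas, another chaperone-rich tissue, had 5 of 11 markers above the filter and sums of 11.66 to 12.00 against 11.15 to 11.85. Cela1 alone made up most of that sum, at 11.19 to 11.84 in Tg and 10.64 to 11.66 in non-Tg livers. Stellate cell markers summed lower in Tg livers (13.32 to 13.55 against 13.57 to 13.93, with 6 of 7 lower). Kupffer cell markers were higher in mean for 8 of 8, with overlapping sums. Tg 6 had the highest Kupffer sum, 15.37, and Tg 7 the lowest of all 6 mice, 14.01. Tg 5, at 14.49, lay within the non-Tg span of 14.34 to 14.54. Markers of T and NK cells were higher in mean for 7 of 9 (median difference 0.89), with overlapping sums of 10.15 to 10.69 against 9.54 to 10.27. Of these 9 markers 5 lay above the filter. The median is the value of Ncr1, which lay below the filter and was lowest in non-Tg 2, at 2.25. Nkg7, above the filter, was also lowest in non-Tg 2, at 1.65. Cholangiocyte markers were lower in mean for 4 of 5 (median -0.47), with sums of 8.02 to 8.95 against 8.53 to 9.25. The part of these markers in the results above was not tested.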

How the data were processed

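The authors deposited log2 signals, 1 per probe set and array; the submitters' processing notes name GCOS, while version, algorithm and scaling target are not stated in the sources used here. The deposited values had a trimmed mean of 500.0 on every array after antilogging. They were used unchanged. Control probe sets (64) were set aside; of 45037 others, 34945 carry a single gene symbol in the platform annotation. Probe sets with a mean above the 40th percentile (log2 5.63) were kept, and the highest-mean probe set stood for a gene. Tg and non-Tg were compared with limma 3.58.1 in R 4.3.3 (lmFit, eBayes with trend, 2-sided, Benjamini-Hochberg over 12705 genes at 0.05, 9.61 degrees of freedom after moderation). A permutation test over the 20 assignments was exact. The procedure was tested on simulated data. Figures used matplotlib 3.10.9. The members, lists and bioC sets were chosen with earlier results of these data known. Named genes were all members, up to 6 genes a list by smallest p under 0.05 (else 3), Retnla and the 6 nearest profiles; Phgdh, Tat and the ERSE genes other than members fall outside this rule and were chosen after their values were seen. The labels call each array an individual sample. The number of arrays limits the precision.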

Additional observations from a re-analysis of the deposited data

How the results depend on the processing

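In 18 alternatives 0 members passed over all genes, with limma adjusted p from 0.179 upward. Genes passing over all genes numbered 4 with 16 added before the log, 6 with 64 added, 5 with arrays centred on their medians, 4 with robust moderation and 4 with the bioC sets as a block, beside 2. Members at an unadjusted p under 0.05 numbered 1 with centring, 1 without the intensity trend (Pdia4 in both), 0 with the mean of kept probe sets, and 1 to 3 with a mouse left out; the mean of kept probe sets also left 0 members without overlap, and leaving out a mouse gave 2 to 5, the highest without non-Tg 3 (19.6% of all genes there) and 4 without Tg 5 (21.8%). ATF4 and CHOP targets at an unadjusted p under 0.05 numbered 4 with centring, 2 without the trend and 2 to 7 with a mouse left out; these list counts under alternatives were added after seeing the data. The cause was not tested. Centring moved the share of genes lower in Tg from 47.9% to 59.6% and the members lower from 5 to 7. The arm medians ran from -0.25 to 0.02 (ATF6 and XBP1) and from -0.06 to 0.09 (ATF4 and CHOP). No paired analysis was possible because the groups share no replicate numbers.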

Other observations

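Few genes carry the ER stress element near their start, and most of those measured belong to the pathway. Of 15 tested genes with an ERSE in the 250 bases upstream, 10 are in the lists used above, among them Calr, Canx, Creld2, Derl3, Dnajc3 and Pdia6 beside Hspa5 and Hsp90b1. Of the 15, 10 were lower and 5 higher in Tg livers, with a median log2 difference of -0.18, beside 0.01 over all genes. The groups did not overlap for 5 of the 15, where the share over all genes was 11.7%: Calr and Hsp90b1 lay lower in Tg livers, and Acacb, Alg12 (0.56) and Pan2 (0.42) higher. Calr, the lectin chaperone calreticulin, was at 14.31, 14.11 and 14.18 in the non-Tg mice and at 13.99, 14.08 and 13.99 in the Tg mice, without overlap, a difference of -0.18 ± 0.08 (SE; limma adjusted p = 0.807). Creld2, a secreted ER stress marker, was at 11.41, 11.12 and 11.21 against 9.76, 10.98 and 11.50. Tg 5 lay far below the others, as it did for Hspa5. At an unadjusted limma p under 0.05 stood 1 of the 15, Acacb, the mitochondrial acetyl-CoA carboxylase, at 0.76 ± 0.24 (SE; adjusted p = 0.735) and on the higher side, a share of 6.67% beside 6.05% of all genes. The shorter-spaced ERSE-II lay before 7 tested genes, 3 lower and 4 higher, with a median of 0.02. Of these 7, 2 had an unadjusted limma p under 0.05, Herpud1 (0.46) and Rcl1 (-0.29). That is 28.6%, beside 6.05% of all genes. These genes were chosen by sequence after the values were seen.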
